A study of Mus musculus with 6 samples.

Results

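Imprinted genes were followed in TM4 cells with and without 4-nitrophenol (PNP). TM4 is an established line from mouse testis, of somatic origin, and serves as a model of Sertoli cells. The set was 33 named genes, measured by every non-control array probe whose transcript name maps to 1 of these symbols. That gave 67 probes of the 56605 on the array and 33 of its 23466 named genes. By textbook knowledge of the mouse, 20 of the genes are expressed from the paternal copy, 12 from the maternal copy, and Gnas makes transcripts of both kinds. Whether each class holds in these cells, or for every probe of a gene, was not tested. Cells were kept for 24 h either untreated or with 10 µM PNP, a phenol found in diesel exhaust. Each group had 3 samples, each hybridised to an array of its own in 1 colour, and the 6 arrays lay on 3 slides. All samples are of this 1 male cell line. Whether replicates were separate cultures is not stated in the labels. The p-values therefore reflect how much these samples vary, and that variation may be technical.

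Imprinting marks a gene in the germ line by DNA methylation, so that only the copy from 1 parent is transcribed in the offspring. The marks sit in control regions that act on a whole neighbourhood, often through a long noncoding RNA that keeps nearby genes silent on the same chromosome. Imprinted genes are known for growth control: paternally expressed genes such as Igf2 tend to promote fetal growth and maternally expressed genes such as Igf2r and Cdkn1c to restrain it. In male germ cells the old marks are erased and paternal ones written, whereas somatic testis cells carry both sets. The arrays measured both copies together, so no value here shows which copy was transcribed.

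Several paternally expressed members start inside another gene. The promoters of 4 of them are shown because the arrays hold probes for each and for its surrounding gene. Among these genes, Kcnq1 and Nnat had no probe above background on any array. Kcnq1ot1, an antisense RNA, starts in Kcnq1 (chr7:143296498-143296797, minus strand). Zrsr1, a retrocopy of a splicing factor gene, lies in Commd1 (chr11:22971755-22972054, plus strand). Mcts2, a retrocopy of a translation factor gene, lies in H13 (chr2:152686898-152687197, plus strand). Nnat, which encodes the membrane proteolipid neuronatin, lies in Blcap (chr2:157559828-157560127, plus strand). The windows are RefSeq sequence of build GRCm38.p6, 5′ to 3′ on the gene's own strand, 300 bases around the transcript start. Capitals mark the hexamer TGCCGC on either strand (GCGGCA on the other), the core that the imprint-protecting zinc finger protein ZFP57 recognises when it is methylated.
Kcnq1ot1: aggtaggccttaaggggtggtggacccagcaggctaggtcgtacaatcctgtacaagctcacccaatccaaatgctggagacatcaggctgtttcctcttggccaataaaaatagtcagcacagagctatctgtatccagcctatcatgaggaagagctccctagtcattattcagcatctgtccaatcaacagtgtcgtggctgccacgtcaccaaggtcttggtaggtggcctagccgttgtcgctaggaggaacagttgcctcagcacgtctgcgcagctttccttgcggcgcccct
Zrsr1: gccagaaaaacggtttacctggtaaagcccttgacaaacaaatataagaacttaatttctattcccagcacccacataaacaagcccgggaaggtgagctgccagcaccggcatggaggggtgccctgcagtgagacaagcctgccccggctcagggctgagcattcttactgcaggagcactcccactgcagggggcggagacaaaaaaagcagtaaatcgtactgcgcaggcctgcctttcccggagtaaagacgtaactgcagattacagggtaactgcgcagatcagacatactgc
Mcts2: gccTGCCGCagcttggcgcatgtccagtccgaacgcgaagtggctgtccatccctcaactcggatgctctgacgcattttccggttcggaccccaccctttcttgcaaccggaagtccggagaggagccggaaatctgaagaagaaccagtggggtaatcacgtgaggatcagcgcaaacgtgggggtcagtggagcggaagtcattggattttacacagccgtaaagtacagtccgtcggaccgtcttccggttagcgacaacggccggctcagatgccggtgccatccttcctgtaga
Nnat: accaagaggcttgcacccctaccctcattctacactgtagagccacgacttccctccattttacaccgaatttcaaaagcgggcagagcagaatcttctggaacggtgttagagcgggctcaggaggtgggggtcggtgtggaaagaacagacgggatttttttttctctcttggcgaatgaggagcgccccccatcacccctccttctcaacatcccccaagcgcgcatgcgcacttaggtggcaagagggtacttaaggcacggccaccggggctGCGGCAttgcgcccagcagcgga
Mcts2 and Nnat held 1 hexamer each in this window, and Kcnq1ot1 and Zrsr1 held none. CpG dinucleotides numbered 25 for Mcts2, 17 for Nnat, 10 for Zrsr1 and 9 for Kcnq1ot1. Windows were matched for 26 of the 33 genes, 41 windows in all, and 9 of them (22%) held the hexamer. Of all 32851 promoters of the table, 3813 (11.6%) held it. The share was 29.2% of 24 windows of paternally expressed genes and 15.4% of 13 windows of maternally expressed ones. It was 19% of the 21 windows of genes read on all arrays and 16.7% of the 12 windows of genes read on none. Some windows overlap: 2 Mest windows start 3 bases apart and hold the same hexamers. With overlapping windows counted as 1 region, 8 of 38 regions (21.1%) held it, 6 of 22 paternal ones (27.3%) and 11.5% of the table's 29061. The median window held 13 CpG against 7 over the table. These are counts of letters, not of bound or methylated sites. The members without a window were Cdkn1c, H19, Impact, Kcnq1, Peg10, Rtl1 and Sgce.

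A probe was read as detected on an array where the scanner software called it well above background. By that measure 16 of the 33 genes had a single probe above background on all 6 arrays, or 48.5%, against 54.4% of all named genes. A further 10 genes (30.3%) had no probe above background on any array, against 31.1% of all named genes. Any probe of a gene could count, and the members had more probes per gene: 67 for 33 genes, against 33778 for 23466 named genes. These shares were not matched for probe number. The share of all probes above background was 47.8% to 57.9% per array, and 32 to 38 of the 67 imprinted probes were above it. Both parental classes were present: 10 of 20 paternally expressed and 5 of 12 maternally expressed genes were read on every array, besides Gnas.

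**Figure D1:**
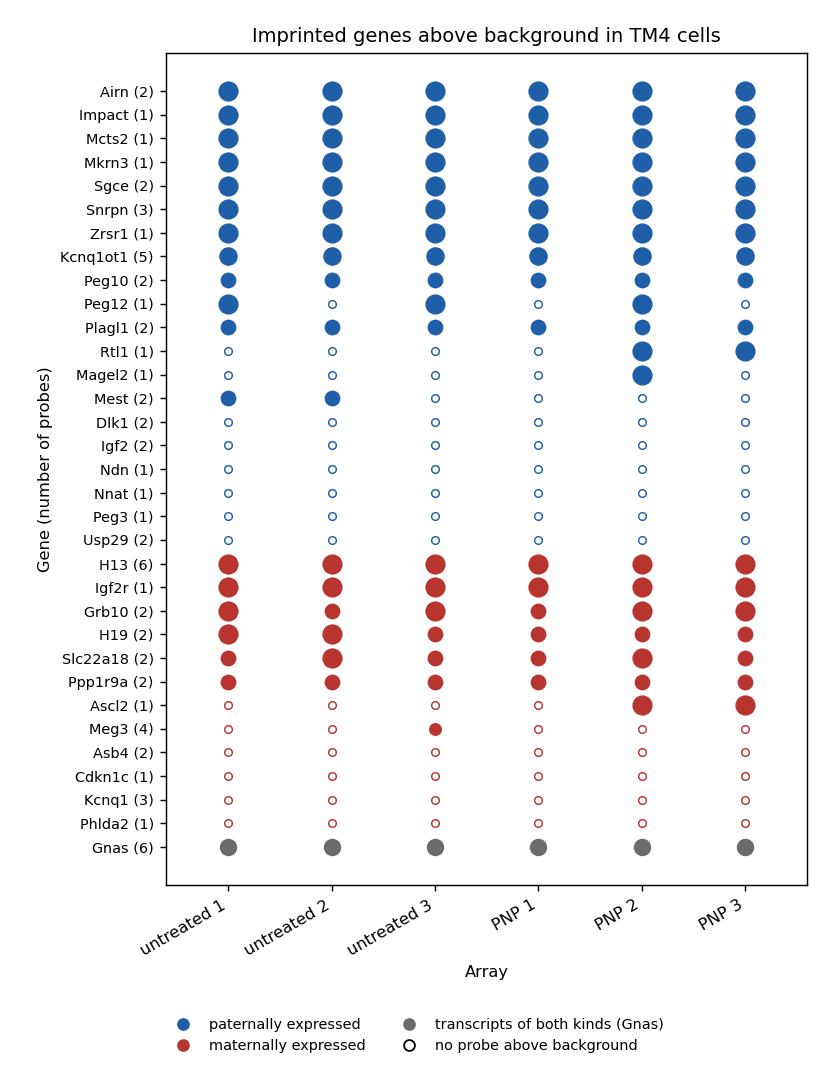
Rows are the 33 imprinted genes with their number of probes, columns the 6 arrays. A filled circle means that at least 1 probe was well above background and its area grows with the share of the gene's probes that were; 16 genes are filled across all 6 arrays by 1 and the same probe, H19 is filled across them by its 2 probes in turn, and 10 are open across all.

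Detected paternally expressed genes were of several kinds. They were the noncoding RNAs Kcnq1ot1 and Airn, the retrocopies Zrsr1 and Mcts2, the retrotransposon-derived Peg10 and its neighbour Sgce, the zinc finger genes Plagl1 and Mkrn3, the splicing gene Snrpn and the translation regulator Impact. The maternally expressed genes read on all arrays were the IGF2 receptor gene Igf2r, the insulin signalling adaptor Grb10, the transporter Slc22a18, the signal peptide peptidase H13 and the neuronal scaffold Ppp1r9a.

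Genes known for growth control lay on both sides of detection: Igf2r, Grb10 and Plagl1 were read on all arrays, and Igf2, Cdkn1c and Phlda2 on none. Igf2, the fetal growth factor, had 2 probes and neither was above background on any array. H19, the noncoding RNA of the same domain, was read near background, as given below. Cdkn1c, an inhibitor of the cell cycle, and Phlda2, which limits placental growth, were above background on no array, and neither was the potassium channel gene Kcnq1 with 3 probes. The other undetected paternally expressed genes were Dlk1 (a Notch-like membrane protein), Peg3 and its neighbour Usp29, Ndn (necdin) and Nnat. Asb4, a maternally expressed ubiquitin ligase subunit, completed the 10.

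Detection was mixed within imprinted domains. Around the undetected Kcnq1, Cdkn1c and Phlda2, the antisense RNA Kcnq1ot1 and Slc22a18 were read on all arrays, as were Cd81, Tssc4, Nap1l4, Osbpl5 and Tspan32 of the same cluster. In the Dlk1 domain, Dlk1 was read on no array while Dio3, the deiodinase that inactivates thyroid hormone, and the microRNA host Mirg were read on all 6. Meg3, the maternal noncoding RNA there, was above background on untreated replicate 3 at 1 of its 4 probes and nowhere else. Rian, the next noncoding RNA, was above on 2 arrays. Beside undetected Igf2, Ins2 was read on all arrays. In the Peg10 domain Peg10, Sgce, Ppp1r9a, Casd1, Pon2 and Pon3 were read on all arrays, Calcr and Dlx5 on 1, and Asb4 and Tfpi2 on none. Detection also differed between probes of 1 gene, since Plagl1, Peg10 and Ppp1r9a each had 1 probe read on all arrays and 1 read on none.

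H19 aside, the other 6 genes were above background on some arrays, each at 1 probe, and none of them entered the comparison. Rtl1, the retrotransposon-derived gene of the Dlk1 domain, was above on PNP replicates 2 and 3 and on no untreated array. Ascl2, a trophoblast transcription factor, was above on the same 2 arrays. Magel2 of the Prader-Willi region was above on PNP replicate 2 alone. Mest, a paternally expressed hydrolase gene, was above on untreated replicates 1 and 2 and on no PNP array. Peg12 was above on untreated replicates 1 and 3 and PNP replicate 2. These patterns also follow the slides and the positions on them. Untreated replicates 1 and 2 shared slide 1, PNP replicates 2 and 3 shared slide 3, and the 3 arrays with Peg12 signal were the 3 at the first position of their slides. For Rtl1, Ascl2 and Mest, slide and treatment cannot be told apart.

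Values below are log2 of the processed signal minus the array's 75th percentile, so 0 is the level of that percentile and 1 unit is a doubling. They compare 1 probe between arrays and not 1 gene with another. Differences are PNP minus untreated, with the standard error (SE) of limma's fit over 21479 units: 13541 named genes, each by its brightest probe, and 7938 transcripts without a symbol. A unit was tested if 1 group or both had it above background on every array, and 17 of the 33 members met that.

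No imprinted gene passed the test. Of the 17 tested, 0 had an adjusted p under 0.05 (limma, Benjamini-Hochberg), and neither did any unit (0 of 21479, 0%). At an unadjusted p under 0.05, 1 member was higher, Kcnq1ot1, and 0 were lower. Over all units 1474 (6.86%) were higher and 660 (3.07%) lower by that rule. The groups did not overlap for 1 member, Mkrn3, which was lower, and over all units they did not overlap for 1681 lower (7.83%) and 1632 higher (7.6%). Differences had a median of -0.09 over the 17 members, -0.04 over the 10 paternally expressed and -0.07 over the 6 maternally expressed ones. Over all units the median was -0.04 and over all named genes -0.09. All members are named genes, as are those of the gene lists below. Of the 13541 named genes, 494 were higher and 393 lower at an unadjusted p under 0.05. Without overlap, 679 of them were higher and 1187 lower. The medians of the members therefore lay close to those of the array as a whole. Counts of 0 or 1 among 17 members tell little about shares. In bulk RNA, fewer cells with a transcript and less RNA per cell cannot be told apart.

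**Figure D2:**
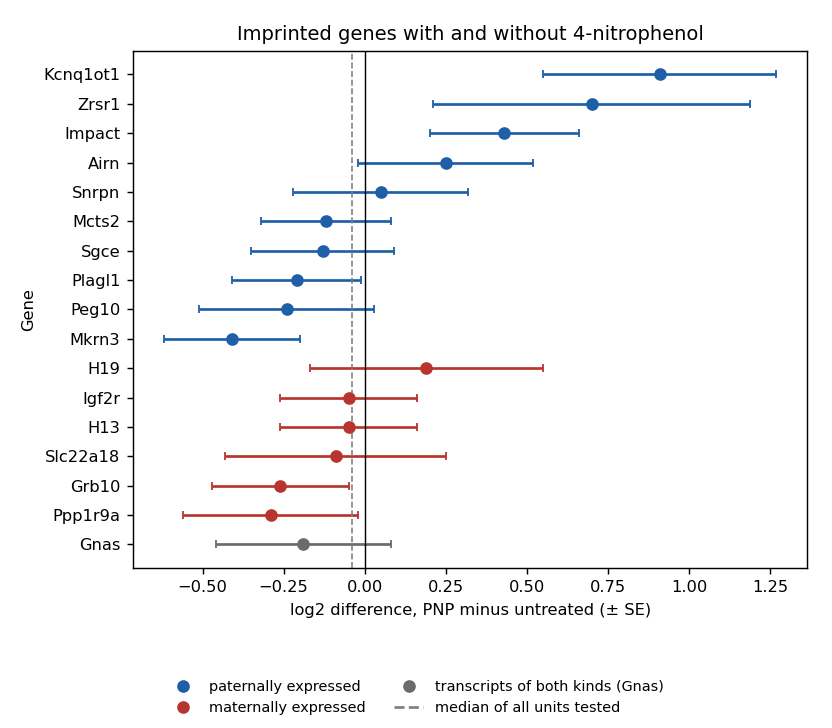
Points are log2 differences, PNP minus untreated, of the 17 tested imprinted genes with the SE of limma's fit over 3 arrays per group. They run from -0.41 (Mkrn3) to 0.91 (Kcnq1ot1), and 0 passed the test.

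Kcnq1ot1 had the greatest difference of the 17. This paternally expressed antisense RNA silences the surrounding genes, Kcnq1 and Cdkn1c among them, on the chromosome that makes it. Its brightest probe (A_55_P2726757) read -0.08, -0.78 and 0.26 in untreated replicates 1 to 3 and 0.99, 1.12 and 0.03 in PNP replicates 1 to 3. PNP replicates 1 and 2 stood above all untreated arrays, and PNP replicate 3 lay below untreated replicate 3. The difference was 0.91 ± 0.36 (SE, n = 3 per group), a fold of 1.88, with an unadjusted p of 0.0342 and an adjusted p of 0.466 (limma). It kept its sign in all 24 alternatives, from 0.62 without untreated replicate 2 to 1.29 within the second array position, and passed in none.

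The 3 other Kcnq1ot1 probes that entered the fit over all 28208 probes also had positive differences. Probe A_55_P2717618 read -2.09, -3.08 and -1.36 untreated and -1.17, -0.16 and -0.64 with PNP, so the groups did not overlap. Its difference was 1.52 ± 0.44 (unadjusted p = 0.00742, adjusted p = 0.349, limma). Without untreated replicate 2 it was 1.07. Probe A_55_P2726560 read -1.37, -0.83 and -0.59 untreated and -0.46, 0.45 and -0.22 with PNP, again without overlap, a difference of 0.85 ± 0.30 (adjusted p = 0.451, limma). Probe A_55_P2408415 read -1.16, -1.45 and -1.70 against -0.46, -0.34 and -1.78. There PNP replicate 3 was the lowest of all arrays, and the difference was 0.58 ± 0.38. The fifth probe (A_52_P534609) was above background on no array. Probes of 1 RNA share their samples and are not replicates. Over all probes, 1984 (7.03%) had higher PNP arrays without overlap and 1770 (6.27%) were higher at an unadjusted p under 0.05.

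The comparison was also made within array positions. Each slide was read at 2 positions, the first holding untreated replicates 1 and 3 and PNP replicate 2, the second untreated replicate 2 and PNP replicates 1 and 3. A fit within 1 position has a single array in 1 group, which is assumed to vary like the others. In the first position it gave all 33 imprinted probes the same SE of 0.41, so its p-values rest on a spread shared between probes and are no replicate check. Probe A_55_P2717618 differed by 1.57 within the first position and 2.18 within the second, and probe A_55_P2726560 by 1.43 and 0.48. H19 probe A_30_P01026972 differed by -2.09 within the first position and -0.8 within the second. With 1 array in a group, these fits support no call here. Of all probes, 548 (1.94%) passed as higher within the first position and 142 (0.503%) within the second, and 90 (0.319%) and 13 (0.0461%) as lower. With array weights both of these Kcnq1ot1 probes were under the adjusted threshold (limma, adjusted p = 0.0405 and 0.0407). So were 1070 probes (3.79%) on the higher side. The weighted fit over units gave untreated replicate 1 a weight of 9.11, against 0.466 to 0.798 for the rest. The weights of the fit over probes are not given here. In the fit over all 6 arrays without weights neither Kcnq1ot1 probe was under the threshold. With the slide as a block, only untreated replicate 3 and PNP replicate 1 are compared, and these 2 arrays also differ in position. There the 2 Kcnq1ot1 probes differed by 0.19 and 0.12, and treatment cannot be told apart from position. With normexp background correction the first of these probes differed by 0.88.

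**Figure D3:**
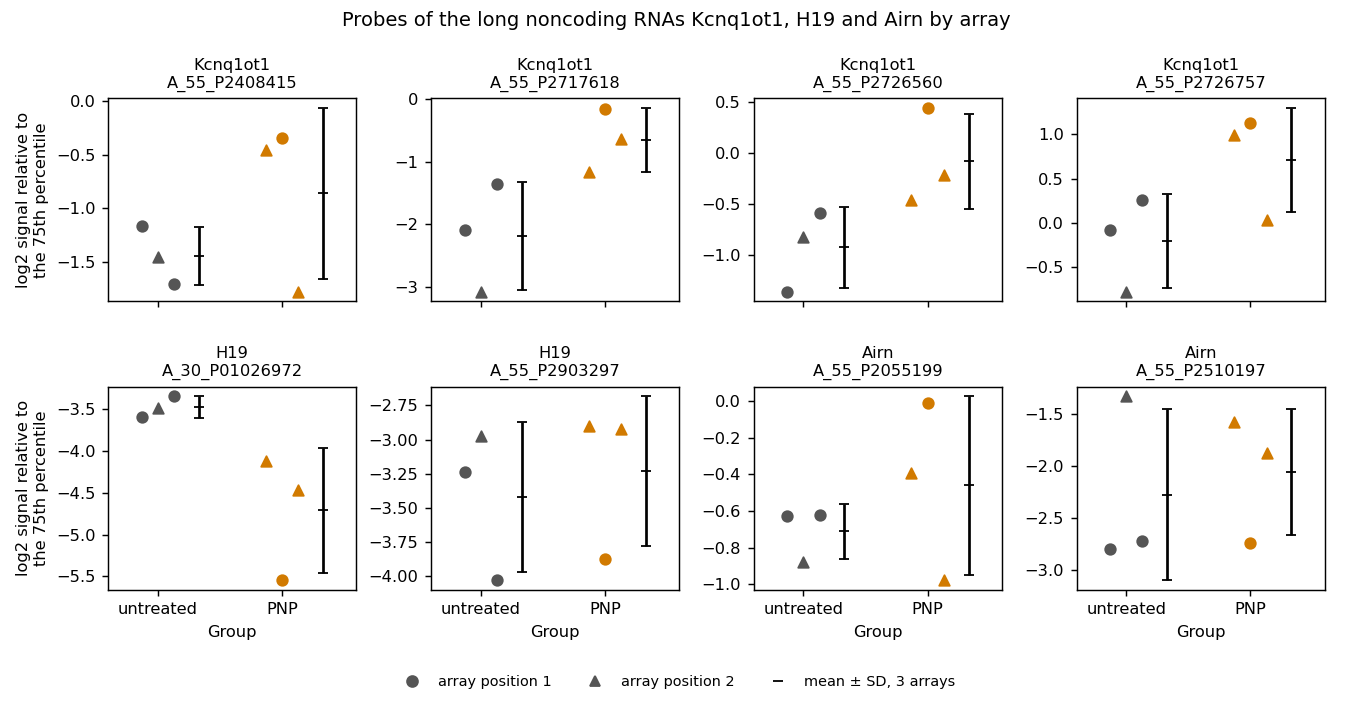
Each panel is 1 probe of a noncoding RNA, with its log2 signal relative to the array's 75th percentile on each array. Circles and triangles are the first and second array position, bars the mean ± SD of 3 arrays; PNP arrays stand apart from untreated ones at 2 Kcnq1ot1 probes (higher) and at H19 probe A_30_P01026972 (lower, with no PNP array above background).

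Airn, the paternally expressed antisense RNA that silences Igf2r on the paternal chromosome, had 2 probes above background on all arrays. The brighter read -0.63, -0.88 and -0.62 untreated and -0.39, -0.01 and -0.98 with PNP. PNP arrays held both the highest and the lowest value, and the difference was 0.25 ± 0.27. The other (A_55_P2510197) read -2.80, -1.33 and -2.72 untreated and -1.58, -2.74 and -1.88 with PNP. Its 3 low values were the 3 arrays at the first position and its 3 high values those at the second. Its target Igf2r, which carries IGF2 to the lysosome, read 1.79, 1.30 and 1.39 untreated and 1.47, 1.38 and 1.48 with PNP. That difference, -0.05 ± 0.21, turned positive under several scalings given in the closing section.

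Among the retrocopies, Zrsr1 varied most between replicates. It read -0.03, 0.94 and 1.31 untreated and 2.34, 0.52 and 1.46 with PNP. PNP replicate 1 was the highest array and untreated replicate 1 the lowest, with the others mixed, and the difference was 0.70 ± 0.49 (adjusted p = 0.655, limma). It was 0.31 without untreated replicate 1, 0.25 without PNP replicate 1 and 1.16 without PNP replicate 2. With array weights it was 1.38 (adjusted p = 0.0743, limma). Within the first array position it was -0.12 and within the second 0.96. Commd1, the copper metabolism gene around it, differed by 0.05 ± 0.21. Mcts2 read 3.03, 2.95 and 2.70 untreated and 2.67, 2.91 and 2.73 with PNP, a difference of -0.12 ± 0.20. Blcap, around the undetected Nnat, was read on all arrays and differed by -0.10 ± 0.20. The genes Zrsr2 and Mcts1, from which these retrocopies derive, had 0.24 ± 0.22 and 0.10 ± 0.21; they were looked up after the values were seen. Probe sequences were not used here, so signal shared between a retrocopy and its source gene was not tested.

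**Figure D4:**
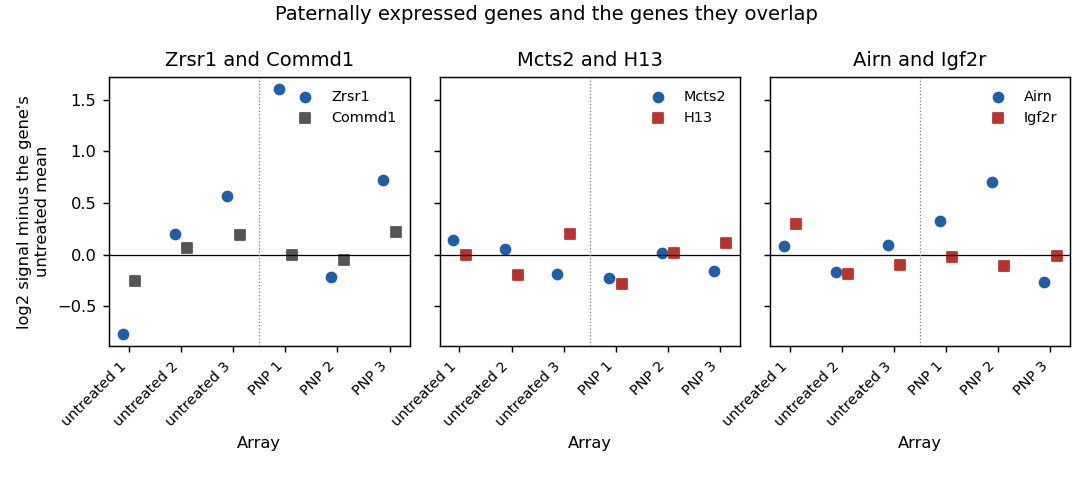
For 3 pairs of overlapping genes, points give each array's log2 signal minus that gene's untreated mean. The Zrsr1 points spread more than those of Commd1, whose signals before that subtraction ran from -0.03 to 2.34 and from 2.46 to 2.93.

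The other paternally expressed genes encode proteins. Impact, which restrains the GCN2 kinase, read 2.28, 2.67 and 1.99 untreated and 2.85, 2.75 and 2.62 with PNP, and only the lowest PNP array fell among the untreated values. The difference was 0.43 ± 0.23 (unadjusted p = 0.0991, adjusted p = 0.572, limma), with 0.61 and 0.07 within the 2 positions. Mkrn3, a ubiquitin ligase that restrains puberty, read -3.13, -2.84 and -2.70 untreated and -3.50, -3.18 and -3.21 with PNP. All PNP arrays lay below all untreated ones, by 0.41 on the mean (-0.41 ± 0.21, unadjusted p = 0.0901, adjusted p = 0.559, limma).

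Plagl1, a zinc finger factor that regulates other imprinted genes, read 2.60, 2.42 and 2.49 untreated and 2.51, 2.18 and 2.20 with PNP. PNP replicate 1 lay among the untreated arrays and the difference was -0.21 ± 0.20. Peg10, needed for the placenta, read -2.48, -3.02 and -2.18 against -2.62, -2.65 and -3.14, with the groups mixed (-0.24 ± 0.27). Its neighbour Sgce, which encodes epsilon-sarcoglycan, read 5.16, 5.32 and 4.81 against 4.81, 4.98 and 5.11 (-0.13 ± 0.22). The second Sgce probe differed by -0.21. Snrpn, a spliceosome protein gene of the Prader-Willi region, read -1.16, -0.55 and -1.23 against -0.79, -1.29 and -0.72. Its 3 probes differed by 0.05, 0.14 and -0.03. The first of these was negative, or 0.00 with normexp, in 11 of 24 alternatives.

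H19, the maternally expressed growth-restraining RNA, was the member whose probes disagreed most. The brighter probe (A_55_P2903297) read -3.24, -2.97 and -4.03 untreated and -2.90, -3.87 and -2.92 with PNP, and was above background on all arrays but untreated replicate 3. The groups overlapped and the difference was 0.19 ± 0.36 (adjusted p = 0.879, limma). The other (A_30_P01026972) was above background on all 3 untreated arrays and on no PNP array. It read -3.59, -3.49 and -3.34 untreated and -4.12, -5.55 and -4.47 with PNP, so the groups did not overlap. It entered the comparison through the untreated group alone, where it is the higher. Over all probes, 2324 (8.24%) were lower without overlap and 875 (3.1%) lower at an unadjusted p under 0.05.

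No PNP array was above background for that probe. Its fold was therefore set against the lowest signal called above background on each array, or the probe's own signal where higher. That gave a 2-fold lower level with PNP (measured means -4.71 against -3.47, adjusted p = 0.348, limma). This is no firm limit. On PNP replicate 3 the probe read -4.47, above that array's lowest called signal of -4.55, and was not called. The difference was -1.24 ± 0.35 and ran from -0.52 with normexp to -2.09 within the first array position. It was -0.82 without PNP replicate 2 and -1.54 without PNP replicate 1. Before scaling, the probe's processed signals were 25.4, 24.2 and 45.7 untreated and 25.1, 9.7 and 17.3 with PNP. Unscaled PNP replicate 1 thus lay among the untreated arrays.

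The other maternally expressed genes differed little. Grb10 read -2.11, -2.32 and -2.20 untreated and -2.76, -2.33 and -2.32 with PNP. PNP replicate 1 was the lowest array, the other PNP arrays lay level with the lowest untreated one, and the difference was -0.26 ± 0.21. Slc22a18 read -2.30, -2.04 and -2.79 against -2.47, -3.09 and -1.86, with the highest and lowest values both on PNP arrays (-0.09 ± 0.34). Ppp1r9a read -2.62, -1.97 and -2.26 against -2.27, -3.04 and -2.42, with overlap (-0.29 ± 0.27). Adjusted p-values of the 6 maternally expressed genes began at 0.699 (limma).

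H13 and Gnas have several transcripts, and probes of 1 transcript did not always go the same way. The brightest H13 probe read 4.24, 4.05 and 4.45 untreated and 3.96, 4.26 and 4.36 with PNP, a difference of -0.05 ± 0.21. A probe for NM_010376 read 3.73, 3.28 and 3.35 against 2.76, 3.02 and 3.17, below all untreated arrays (-0.47 ± 0.22, adjusted p = 0.555, limma). A probe for NM_001159552 also stood below without overlap (-0.37 ± 0.21), whereas a second probe for that transcript differed by 0.17 ± 0.30, with overlap. The 2 probes for NM_001159553 differed by -0.04 and 0.06. Gnas encodes the stimulatory G protein alpha subunit, whose brightest probe read 5.54, 5.81 and 5.38 untreated and 5.45, 4.91 and 5.81 with PNP. PNP replicate 2 was the lowest array and the difference was -0.19 ± 0.27. Another 2 probes for the same transcript differed by -0.18 and -0.36, and a probe for NM_001310083 by 0.50 ± 0.41. The last 2 Gnas probes were above background on no array.

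Over the 33 imprinted probes that entered the fit of single probes, 0 passed, 3 were higher at an unadjusted p under 0.05 (all of Kcnq1ot1) and 1 was lower (H19). Over all 28208 probes 6.27% were higher and 3.1% lower by that rule. Groups did not overlap at 2 of the 33 that were higher and 4 that were lower, against 7.03% and 8.24% of all probes. The 4 were the H19 probe without signal above background on PNP arrays, 2 of H13 and that of Mkrn3. That H19 probe is in both lower counts. It entered the fit through the untreated group alone, where it is the higher, so its place in them is no support for a difference.

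The 2 array positions were compared too. With treatment in the model, 566 of 21479 units (2.64%) differed between the second and the first position (limma), a comparison added after the data were seen. Of the 17 members 0 passed. Snrpn was higher at the second position on all arrays (0.59 ± 0.17, adjusted p = 0.113, limma), and so was H19 at its brighter probe (0.81 ± 0.25, adjusted p = 0.128, limma). Over all units 2474 (11.5%) were higher there without overlap. Kcnq1ot1 was lower at the second position by 0.73 (-0.73 ± 0.29). Within each position, Kcnq1ot1, Impact and Airn had positive differences between PNP and untreated and Mkrn3, Plagl1, Snrpn, Grb10, Slc22a18, Ppp1r9a and Gnas negative ones, whereas Zrsr1, Mcts2, Peg10, H19, Igf2r and H13 had opposite signs in the 2 positions. Sgce had 0.00 and -0.36.

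**Figure D5:**
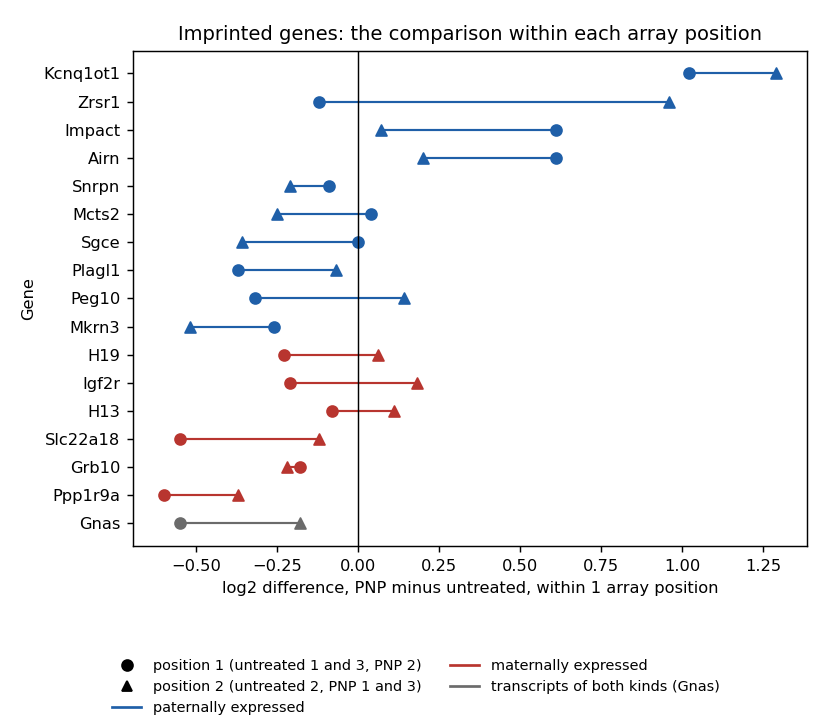
For each of the 17 tested genes, the log2 difference, PNP minus untreated, within the first (circle) and the second (triangle) array position. Kcnq1ot1 lies at 1.02 and 1.29, and 6 genes lie on opposite sides of 0.

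Imprinted genes outside the set were read in the same way. Of 43 listed, 41 had a probe, 25 were read on all arrays, and 26 were tested with 0 passing and a median difference of -0.10. At an unadjusted p under 0.05, 2 of the 26 were higher and 3 lower, against 6.86% and 3.07% of all units. Groups did not overlap for 2 that were higher and 5 that were lower, against 7.6% and 7.83%. Dio3 read -1.0, -1.07 and -1.84 untreated and -2.10, -2.54 and -2.50 with PNP, below all untreated arrays (-1.08 ± 0.28, adjusted p = 0.296, limma). The Polycomb-related gene Sfmbt2 differed by 1.16 ± 0.31 (adjusted p = 0.301, limma), the ubiquitin ligase Ube3a by 0.80 ± 0.30 and the serotonin receptor gene Htr2a by -0.62 ± 0.22.

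Factors that keep imprints, listed together with the DNA demethylases Tet1, Tet2 and Tet3, were mostly read: 21 of 25 on all arrays. Dppa3 and Ctcfl, genes of germ cells and early embryos, were read on none. Of the 21 tested 0 passed in limma, with 2 higher and 1 lower at an unadjusted p under 0.05 (6.86% and 3.07% of all units) and a median difference of 0.01. Groups did not overlap for 1 that was higher and 3 that were lower (7.6% and 7.83%). Dnmt1, which copies DNA methylation at replication, read 2.96, 2.81 and 2.76 untreated and 2.08, 2.53 and 2.29 with PNP. All PNP arrays were lower (-0.54 ± 0.21, adjusted p = 0.448, limma). The telomere and replication timing factor Rif1 differed by 0.55 ± 0.21, the histone methyltransferase Setdb1 by 0.89 ± 0.38 and the DNA demethylase Tet2 by 0.54 ± 0.26. Zfp57, whose product protects imprints, was read on all arrays and differed by 0.06 ± 0.21.

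Of 19 genes of the IGF axis, on which Igf2, Igf2r and Grb10 act, 15 were read on all arrays, 15 were tested and 0 passed in limma, or at an unadjusted p under 0.05, with a median of -0.09. The signalling kinase Akt1 differed by -0.37 ± 0.21, the adaptor Irs2 by -0.36 ± 0.22, the RNA-binding protein gene Igf2bp3 by -0.39 ± 0.25 and Igf1 by -0.63 ± 0.46.

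Markers of testis cell types were read beside the imprinted genes. Of 15 Sertoli markers 12 were read on all arrays, and Amh, Cldn11 and Fshr on none. Summed over the list, their level relative to the 75th percentile was 14.6 to 18 untreated and 13.4 to 16.1 with PNP. Markers of peritubular myoid cells were all read (5 of 5), with sums of 79.2 to 126 untreated and 85 to 122 with PNP, most of it from the Tagln probe (untreated mean 6.52 on the log2 scale). Of germ cell markers 3 of 8 were read on all arrays, with Ddx4 and Prm1 on none (62.7 to 90.5 against 71 to 91.5). Nearly all of that sum was 1 Nanog probe (6.24), while the other 3 tested germ markers had untreated means of -3.22 to -2.16. Leydig markers were read for 1 of 6, Nr5a1 (1.67 to 1.91 against 1.15 to 1.72), macrophage markers for 2 of 5, with Adgre1 and Ptprc on none (5.39 to 9.73 against 4.44 to 8), and endothelial markers for 0 of 4. These sums overlapped between the groups. They add signals of different probes and are not compared between lists. Of 12 Sertoli markers tested 8 had negative and 4 positive differences, and 0 passed (limma). Of the 13541 named genes tested, 8419 had negative differences. The highest marker, Kitl, differed by 0.28 ± 0.21. On PNP arrays 3 markers were lower without overlap, against 7.83% of all units and 1187 of the named genes. These were the transcription factor gene Sox9 (-0.81 ± 0.23, unadjusted p = 0.00659, adjusted p = 0.303, limma), Rhox5 (-0.44 ± 0.22) and Gdnf (-0.22 ± 0.19). Of the 2 macrophage markers tested, the receptor gene Csf1r was lower without overlap (-0.63 ± 0.27, adjusted p = 0.501, limma). The other, Cd68, differed by 0.12 ± 0.42, with overlap. The part of these markers in the values of imprinted genes was not tested.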

How the data were processed

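RNA of the 6 samples was amplified and Cy3-labelled, per the labels' protocols. The deposited intensity values come from Agilent Feature Extraction (10.7 per the submitters' processing notes, 11.5.1.1 per the file headers). They are a processed signal, background-subtracted and not normalized between arrays. The authors' deposited log2 table of the same arrays correlates with it at 0.9981 or more and has a median of 4.75 in every column. Its scale is read from the values and its normalization is unstated. It served as an alternative. The number of arrays limits the precision, and 0 probe spots were saturated.

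Spots with outlier flags were dropped, log2 processed signals averaged per probe, and arrays scaled by subtracting their 75th percentile. Probes entered where every array of 1 group or both was well above background, which left 28208. Accessions were matched without versions to RefSeq tables of GRCm38.p6. The file headers name another build, so only names and neighbours were taken. A further 11 probes, among them H19 probe A_30_P01026972, were named by a symbol in the files. That naming was added after the first results had been seen. In all, 33778 probes were named and 22827 stayed unnamed. The comparison used lmFit and eBayes of limma 3.58.1 (R 4.3.3), two-sided, with Benjamini-Hochberg adjustment over every unit. The script was tested on simulated arrays. Figures used matplotlib 3.10.9 with Python 3.11.15, and the R packages statmod 1.5.0 and data.table (version 1.17.8) served for reading and modelling.

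All 33 members are named, those tested with every array's value. Of other lists at most 4 genes with the smallest p are named. Sertoli markers were instead named for non-overlap, and Kitl as the highest, after their values were seen. That left out Gata4 (-0.48 ± 0.23) and Inhbb (-0.38 ± 0.27), both with overlap. Undetected markers, Tagln and Nanog were named for detection or summed levels. Domain neighbours, Zfp57 and source genes of retrocopies were named after their values were seen. Members and lists were chosen with earlier results of these data known. The alternatives were other scalings (quantile, median, a percentile over detected probes, normexp with an offset of 50), other filters, the median of a gene's probes, a robust trend, array weights, fits within 1 position, the authors' table, a threshold of 0.1, leaving out each array, and a block for replicate number, slide (fixed or random) or array position.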

Additional observations from a re-analysis of the deposited data

Results flagged for a closer look

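Rtl1 and Ascl2 were each well above background on 2 PNP arrays (replicates 2 and 3) and on 0 untreated arrays, and Magel2 on 1 PNP array (replicate 2) and 0 untreated arrays. All 3 probes lie outside the tested table. On the scale used here Rtl1 read -4.85, -4.39 and -5.03 untreated and -4.77, -4.60 and -3.83 with PNP, so the groups overlapped. Ascl2 read -5.35, -4.46 and -5.74 against -4.53, -4.47 and -4.08, and Magel2 -4.53, -4.47 and -5.47 against -5.89, -4.35 and -4.71, both with overlap. The lowest signal called above background was higher than these groups' means, so no fold is given for the 3 genes. Mest showed the opposite pattern at 1 probe, with 2 untreated arrays above background and 0 PNP arrays. It read -4.37, -3.75 and -5.12 untreated and -5.63, -5.13 and -5.36 with PNP. Untreated replicate 3 was not above background, so the untreated mean gives no bound and no fold is given for Mest either. The other Mest probe was above background on no array, with means of -6.07 untreated and -5.93 with PNP.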

How the results depend on the processing

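The count of units that passed was 0 in the planned fit and 0 to 0 on leaving out each array. It was 1365 with array weights, 538 and 78 within the first and second array position, 93 with normexp plus a position block and 18 with a robust trend and that block; these last 2 fits were added after the data were seen. Imprinted genes that passed, each by its brightest or median probe, numbered 0 in every alternative. The medians of paternally and maternally expressed genes ran from -0.14 to 0.12 and from -0.27 to 0.04. Centring on the median moved that of all units from -0.04 to -0.15.

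Signs turned for the genes that follow, and the cause was not tested. H13 was 0.00 with quantile normalization, 0.02 with a percentile over detected probes, 0.03 in the authors' table, 0.11 within the second position and 0.01 with each of the 3 position blocks. Igf2r was 0.01, 0.03 and 0.02 in the first 3 of these, 0.05 with normexp, 0.08 with slide as a fixed block, 0.18 within the second position and 0.14 with normexp and position. Snrpn was -0.06 with median centring, -0.15 with position, -0.09 and -0.21 within the positions, -0.17 and -0.15 in the added fits. H19 was -0.05 with normexp, -0.53 by the median of its 2 probes, -0.08 with position, -0.23 within the first position, -0.21 and -0.08 in the added fits. With slide as a fixed block Gnas was 0.07, Plagl1 0.02, Sgce 0.00 and Slc22a18 0.32. Ppp1r9a was 0.00 with array weights, Mcts2 0.04 and Zrsr1 -0.12 within the first position, and Peg10 0.14 within the second. On leaving out each array, Igf2r ran from -0.15 to 0.10, Snrpn from -0.08 to 0.27, Slc22a18 from -0.40 to 0.22, H13 from -0.15 to 0.07, H19 from -0.12 to 0.51 and Gnas from -0.40 to 0.05.

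With the replicate block 0 units and 0 imprinted genes passed, and the medians stayed at -0.04 and -0.07. Deviations of same-numbered arrays correlated at -0.409, -0.553 and -0.406, and the numbers were not taken to pair the samples. Same-numbered arrays always lay at opposite positions on their slides, and a pairing apart from position was not tested. Signal over background limits the dim probes, such as that of Peg12 and the second of H19, whose levels are only bounds on arrays where they were not above background.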
